A study of Mus musculus with 6 samples.

Results

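The PU.1, Runx and Ets factors are a set of transcription factor genes that act early in blood cell formation: Spi1, Spib, Runx1, Runx2, Runx3, Cbfb, Ets1, Ets2, Fli1 and Erg. They were chosen by gene symbol, as every probe set (a group of oligonucleotide probes on the array that reads 1 transcript) whose annotation names only that gene. Of the 10 genes, 9 had a probe set in the annotation used, with 22 probe sets in all, of 45037 on the array. Runx1 had 6 probe sets, Ets1 had 4, Ets2 had 3, Runx3, Fli1 and Erg had 2 each, and Spi1, Spib and Cbfb had 1 each. In the annotation table used, no probe set named Runx2, alone or with other genes, and its level was not analysed here. The arrays measured RNA from GMPs, granulocyte/macrophage progenitors, which are the bone marrow cells that give rise to neutrophils and monocytes, sorted from mice on the BL6 background. The IRF4/8DKO group lacked both interferon regulatory factors IRF4 and IRF8, with a sample from a male and one from a female, both 16 weeks old. The IRF8KO group lacked IRF8, with a female of 12 weeks and a male of 22 weeks. The wild-type (WT) group held a male of 12 weeks and a female of 19 weeks. Each of these 6 samples was run on 1 array, so p-values rest on the spread between the 2 arrays of each genotype. That spread was pooled over the 3 genotypes and moderated by the spread of other probe sets. How the alleles were made and whether animals were pooled are not stated in the labels.

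PU.1, the product of Spi1, is an ETS-domain factor that binds DNA around a GGAA core and is needed for the formation of monocytes, neutrophils and B cells, with its dose known to weigh on the choice between them. IRF8 and IRF4 bind DNA poorly alone and are recruited by PU.1 or the closely related Spi-B to composite sites at which the ETS core lies next to an interferon regulatory factor half-site. Runx1, Runx2 and Runx3 bind a TGTGGT site through the Runt domain, and core binding factor beta, encoded by Cbfb, is the partner that stabilises them on DNA. Runx1 is required for definitive blood stem cells to form and acts upstream of Spi1 in the mouse embryo. Fli1 and Erg are related ETS factors of stem cells, megakaryocytes and endothelium, and Ets1 and Ets2 are another related pair, downstream of MAP kinase signals.

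Values are intensities on a linear scale, as the authors deposited them, and the median intensity of an array ranged from 34.1 to 45.3. The genes that mark GMPs and their sort gate were all measured above the low-value filter, 9 of 9, and their summed intensity was 51556 and 60788 in IRF4/8DKO, 46869 and 54032 in IRF8KO, and 42689 and 50460 in WT. Within that list Cd34 read 590 and 509 in IRF4/8DKO, 440 and 669 in IRF8KO, and 1747 and 1401 in WT. Fcgr3, in the same list, went the other way, with 2516 and 5863 in IRF4/8DKO, 2618 and 6315 in IRF8KO, and 1090 and 1259 in WT. Irf8 itself read 2611 and 4778 in IRF4/8DKO, 3811 and 2602 in IRF8KO, and 2588 and 3052 in WT by 1 probe set, with the genotypes overlapping, and was higher by value on all 4 knockout arrays by its other probe set. One Irf4 probe set read 66.0 and 54.6 in IRF4/8DKO, 13.8 and 7.66 in IRF8KO, and 32.1 and 23.4 in WT. The other read 11.8 and 20.1 in IRF4/8DKO, 29.7 and 14.1 in IRF8KO, and 33.1 and 16.8 in WT, with all genotypes overlapping. Where these probes lie relative to the deleted exons is not stated in the labels, and the values do not check the genotype labels. The T cell genes Cd3e, Cd3d and Cd3g did not pass the low-value filter, with Cd3e between 6.29 and 21.0 on all 6 arrays. Other T cell genes did pass it, among them Cd8a, between 25.3 and 62.4, and Bcl11b, between 68.2 and 302. In such sorted bulk samples, fewer cells of a type and less RNA per cell cannot be told apart.

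The Runx genes share a sequence feature that the choice of members did not use. RefSeq promoter windows (GRCm38.p6, 250 bases before to 50 after a start site) were available for 7 of the 10 genes, 11 windows in all. Spi1, Ets1 and Fli1 had no window, so the counts below do not cover them. The site TGTGGT, searched on both strands, occurred in 3 of these 11 windows and in 16.8% of all 32851 promoter windows. In each of the 3 it occurred as a tandem pair, with 2 bases between the sites on the same strand. The pair was searched for after these windows had been read, and was found in 7 of the 32851 windows (0.0213%). The windows with the pair are those of Runx1 (chr16:92826025-92826324, minus strand), Runx2 (chr17:44814578-44814877, minus strand) and Runx3 (chr4:135120395-135120694, plus strand). They are printed here 5′ to 3′ because each Runx gene carries the pair in 1 of its windows, with the Runx sites in capitals.
Runx1: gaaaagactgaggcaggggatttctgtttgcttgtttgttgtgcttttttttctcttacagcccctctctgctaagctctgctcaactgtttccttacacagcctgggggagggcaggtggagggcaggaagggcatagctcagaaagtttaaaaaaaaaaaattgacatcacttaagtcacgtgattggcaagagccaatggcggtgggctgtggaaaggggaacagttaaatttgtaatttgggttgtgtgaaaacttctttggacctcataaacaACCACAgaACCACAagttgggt
Runx2: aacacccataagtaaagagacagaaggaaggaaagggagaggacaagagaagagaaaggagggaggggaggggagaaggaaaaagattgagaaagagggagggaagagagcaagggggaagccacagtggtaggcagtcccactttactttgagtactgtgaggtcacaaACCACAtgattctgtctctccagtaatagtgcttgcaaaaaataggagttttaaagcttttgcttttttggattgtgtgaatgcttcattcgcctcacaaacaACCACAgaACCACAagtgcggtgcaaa
Runx3: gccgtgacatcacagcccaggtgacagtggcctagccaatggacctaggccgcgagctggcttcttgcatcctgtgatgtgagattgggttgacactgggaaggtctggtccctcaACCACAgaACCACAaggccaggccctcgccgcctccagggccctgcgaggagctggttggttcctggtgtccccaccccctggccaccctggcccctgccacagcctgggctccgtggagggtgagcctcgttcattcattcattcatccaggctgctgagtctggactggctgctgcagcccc
In Runx1 the pair starts 28 and 36 bases after the start site, in Runx2 it starts 23 and 31 bases after it, and a lone site lies 80 bases before it. In Runx3 the pair starts 134 and 126 bases before the start site. The ETS core GGAA was present in 10 of the 11 windows, against 96.0% of all windows. The composite ETS-IRF letters, GGAA then GAAA with 2 bases between them, were in 0 of 11 windows, against 2.72% of all windows. The interferon-stimulated response element letters, GAAA repeated with 2 bases between, were also in 0 of 11, against 3.44%. These are matches of letters in short windows and were not tested as binding sites.

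None of the 22 probe sets of these factors passed the test in any comparison. All 22 passed the filter on low values, which kept 29783 probe sets above the 40th percentile of their array on at least 2 arrays. They were tested in a linear model over all 6 arrays (limma, empirical Bayes with a trend on mean level, Benjamini-Hochberg adjustment over all kept probe sets, threshold 0.05), on log2 of the intensity plus a pseudocount of 10.5. Fold changes are on that scale, which understates the change of dim probe sets.

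For IRF4/8DKO against WT, limma called 0 of 22 member probe sets, against 0.299% of all probe sets, and 0 had an unadjusted p under 0.05, against 9.05%. For IRF8KO against WT it called 0 of 22, against 0.0302%, with 3 at an unadjusted p under 0.05, against 13.5%. Between IRF4/8DKO and IRF8KO it called 0 of 22, against 0% of all probe sets, with 1 at an unadjusted p under 0.05, against 8.52%. A further contrast, the mean of both knockout genotypes against WT, called 0 of 22, against 0.601%, with 2 at an unadjusted p under 0.05, against 11.6%. Arrays of the genotypes did not overlap for 10 of the 22 probe sets in IRF4/8DKO against WT (43.6% of all probe sets), for 7 in IRF8KO against WT (45.7%) and for 9 in IRF4/8DKO against IRF8KO (36.6%). With both knockout genotypes together this held for 1 (21% of all probe sets). As shares of 22 these counts lie near or below the background of the arrays. All comparisons against WT rest on the same pair of WT arrays, and the error of a log2 fold change was 0.24 to 0.71 (SE, n = 2 arrays per genotype).

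**Figure D1:**
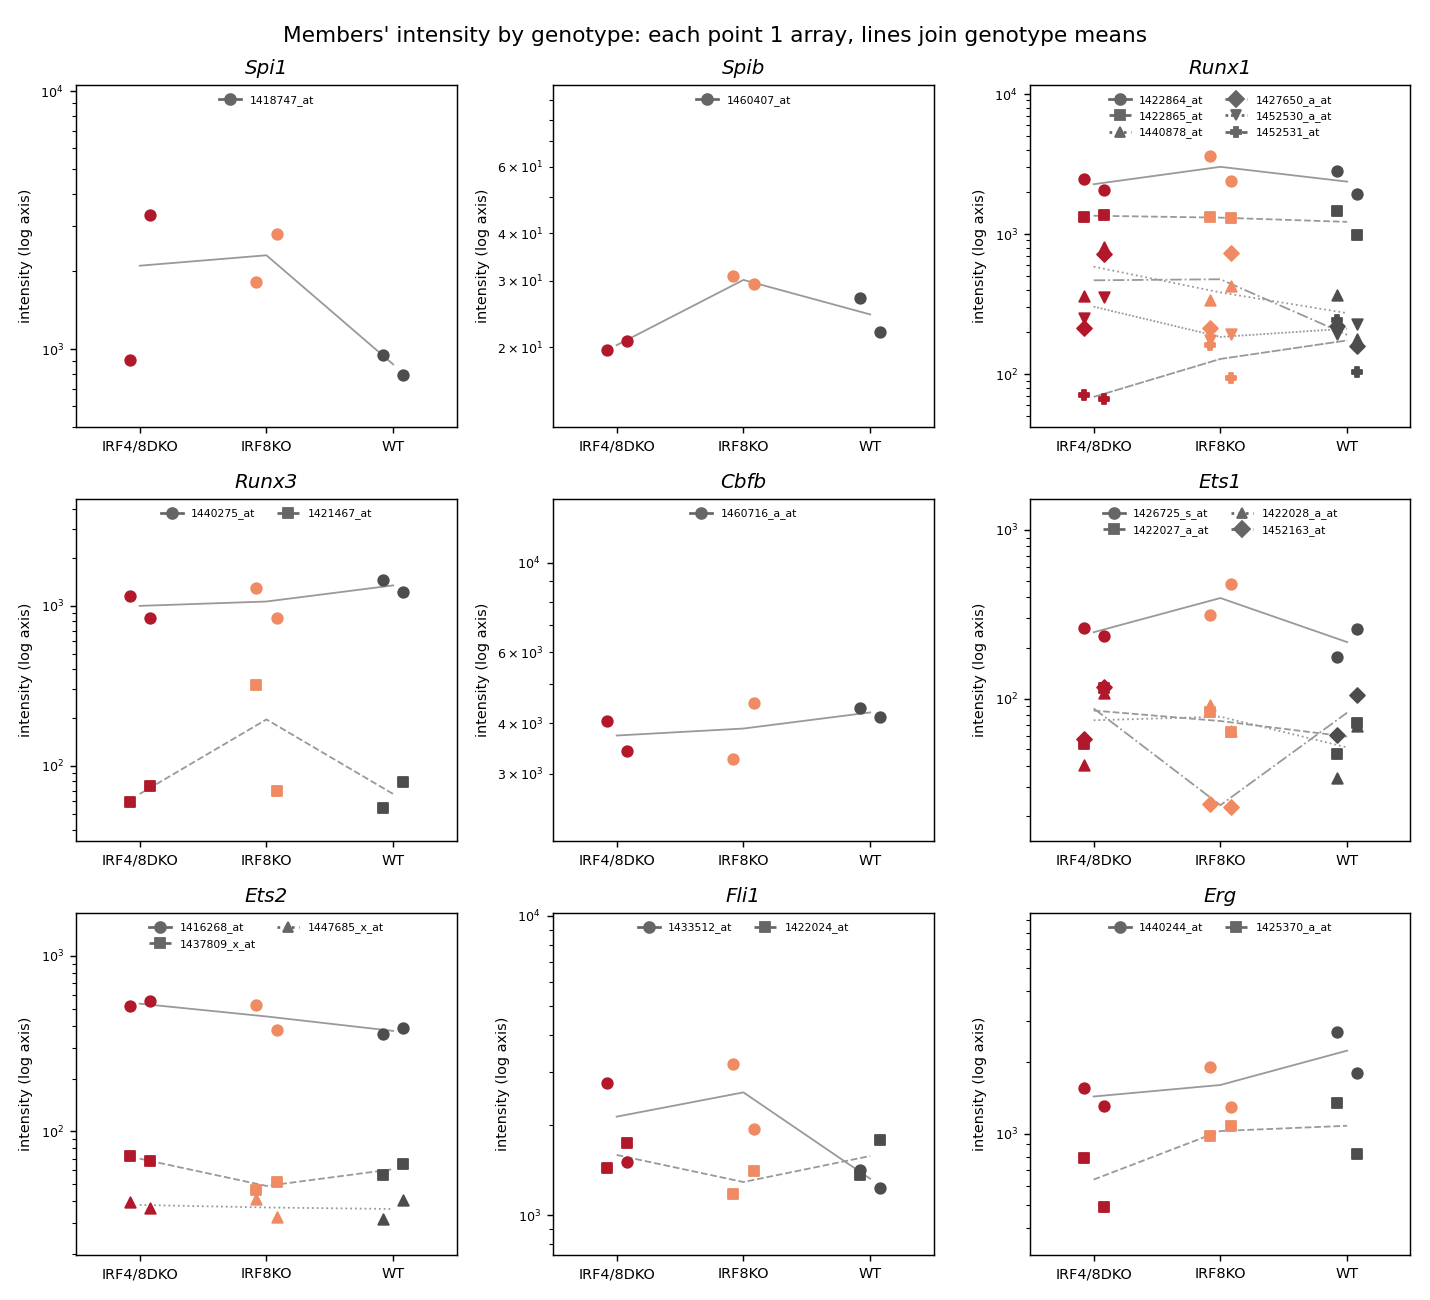
Intensity of each member probe set (log axis) on each of the 6 arrays, by genotype, with a panel per gene, a marker shape per probe set and lines joining the genotype means. Spi1 reads 911 and 3301 in IRF4/8DKO, 1824 and 2797 in IRF8KO, and 949 and 798 in WT, so both IRF8KO arrays lie above WT and the IRF4/8DKO arrays lie far apart.

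Spi1, which codes for PU.1, had the widest spread of level among the genes' representative probe sets (the kept probe set with the highest mean). It read 911 and 3301 in IRF4/8DKO, 1824 and 2797 in IRF8KO, and 949 and 798 in WT. Both IRF8KO arrays lay above both WT arrays, and the IRF4/8DKO arrays lay far apart, with 1 of them within the WT range. The log2 fold change was 1.37 ± 0.55 (SE) in IRF8KO against WT, or 2.58-fold, with a 95% interval of 1.09-fold to 6.09-fold and a limma adjusted p = 0.331. Against WT, IRF4/8DKO gave 0.99 ± 0.55 (SE), with an interval on the log2 scale of -0.25 to 2.23 (limma adjusted p = 0.673). Between IRF4/8DKO and IRF8KO it was -0.38 ± 0.55 (SE), with an interval of -1.62 to 0.86 (limma adjusted p = 0.862). The value in IRF4/8DKO against WT rests on its replicate 2, without which the log2 fold change was 0.07, against 1.91 without replicate 1.

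Genes of maturing myeloid cells were uneven over the same arrays. The summed intensity of mature neutrophil markers (9 of 10 listed had a probe set, all kept) was 20972 and 45718 in IRF4/8DKO, 25525 and 47233 in IRF8KO, and 12474 and 30222 in WT. It was highest on the arrays with the highest Spi1, IRF4/8DKO replicate 2 and IRF8KO replicate 2, but WT replicate 2 held the third highest sum and the lowest Spi1. The sum of monocyte and macrophage markers (7 of 8 had a probe set, 6 kept, Cx3cr1 not) was 11183 and 17399 in IRF4/8DKO, 9354 and 11398 in IRF8KO, and 4391 and 3829 in WT, so that all 4 knockout arrays lay above both WT arrays. Of the 6 kept genes, limma called 3 higher and 1 lower in IRF4/8DKO against WT, where it called 0.299% of all probe sets. In IRF8KO against WT it called 0 higher and 1 lower, against 0.0302% of all. The lower one was Ly86, the MD-1 gene, which read 11 and 3.52 in IRF4/8DKO, 4.70 and 3.22 in IRF8KO, and 625 and 575 in WT. With sex as a block, limma called 0 of all probe sets in IRF4/8DKO against WT, so these marker calls were lost there. Csf1r, the M-CSF receptor gene and a reported PU.1 target, is among those markers. The part of these markers in the Spi1 values was not tested.

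**Figure D2:**
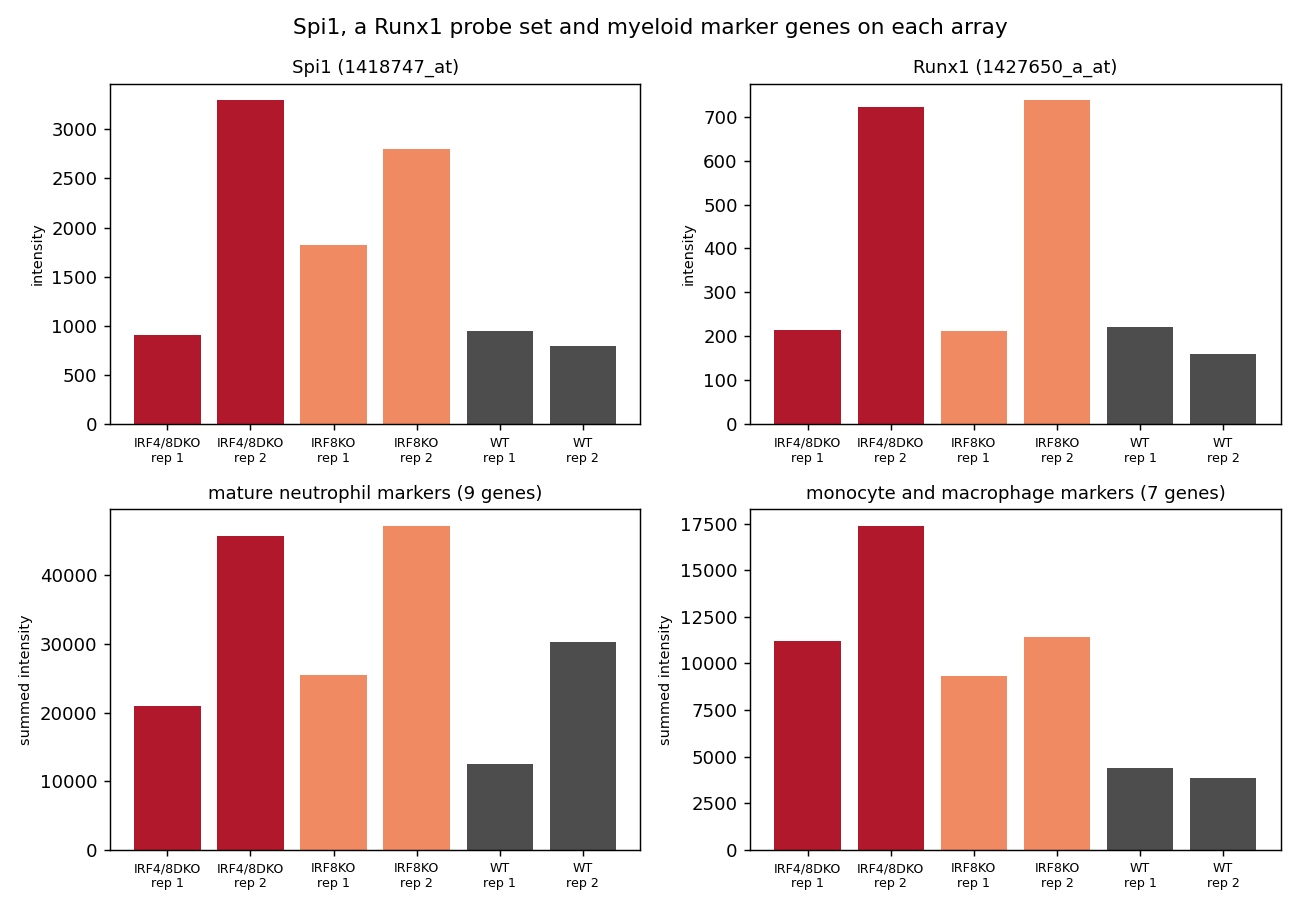
Intensity of Spi1 and of Runx1 1427650_a_at (top), and summed intensity of mature neutrophil and of monocyte and macrophage marker genes (bottom), with 1 bar per array. The Runx1 probe set shown has the largest SD of log2 values among the 6 of the gene. The representative Runx1 probe set, not shown, read lower on replicate 2 than on replicate 1 in IRF4/8DKO (2482 and 2058) and in IRF8KO (3629 and 2413). IRF4/8DKO replicate 2 and IRF8KO replicate 2 are highest for Spi1 (3301 and 2797), for the Runx1 probe set (721 and 739) and for neutrophil markers (45718 and 47233). WT replicate 2 is lowest for Spi1 (798) and the Runx1 probe set (160), with neutrophil markers at 30222, above replicate 1 of either knockout genotype.

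Spib codes for Spi-B, the ETS factor nearest to PU.1, known mainly from B cells and plasmacytoid dendritic cells. It was dim on every array, at 19.7 and 20.8 in IRF4/8DKO, 30.9 and 29.4 in IRF8KO, and 27.0 and 21.9 in WT. The IRF4/8DKO arrays lay below the others and the IRF8KO arrays above them, within a 1.57-fold range over all 6 arrays. The log2 fold change was -0.18 ± 0.36 (SE) in IRF4/8DKO against WT and 0.22 ± 0.36 (SE) in IRF8KO against WT (limma adjusted p = 0.931 and 0.833).

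Runx1 was read by 6 probe sets, which did not move alike. The representative one read 2482 and 2058 in IRF4/8DKO, 3629 and 2413 in IRF8KO, and 2816 and 1921 in WT. All 3 genotypes overlapped, with a log2 fold change of -0.04 ± 0.31 (SE) in IRF4/8DKO against WT and 0.35 ± 0.31 (SE) in IRF8KO against WT (limma adjusted p = 0.983 and 0.673). The 95% interval of the first was -0.75 to 0.67 on the log2 scale, and its sign turned under median centring (0.01). A second bright probe set (1422865_at) read 1334 and 1370 in IRF4/8DKO, 1315 and 1305 in IRF8KO, and 1455 and 989 in WT.

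The other Runx1 probe sets split in direction. Probe set 1427650_a_at read 214 and 721 in IRF4/8DKO, 213 and 739 in IRF8KO, and 221 and 160 in WT. Replicate 2 of each knockout genotype stood apart, and these are the arrays with the highest neutrophil marker sums. WT replicate 2, with a higher sum than replicate 1 of either knockout genotype, had the lowest value of this probe set. The part of these markers in its values was not tested. The log2 fold change of 1427650_a_at was 1.03 ± 0.71 (SE) in IRF4/8DKO and 1.04 ± 0.71 (SE) in IRF8KO against WT (limma adjusted p = 0.762 and 0.564). Without replicate 2 of the genotype it was 0.18 and 0.17. Probe set 1440878_at read 360 and 810 in IRF4/8DKO, 340 and 426 in IRF8KO, and 367 and 178 in WT, with IRF4/8DKO replicate 2 highest. Probe set 1452531_at ran the other way, with 70.6 and 66.8 in IRF4/8DKO, 163 and 93.9 in IRF8KO, and 244 and 104 in WT. Both IRF4/8DKO arrays lay below all others there (log2 fold change -1.11 ± 0.51 SE against WT, limma adjusted p = 0.582). Probe set 1452530_a_at, designed from the same source sequence as 1452531_at, read 252 and 355 in IRF4/8DKO, 176 and 193 in IRF8KO, and 194 and 228 in WT. There the IRF4/8DKO arrays were the highest of the 6. The Affymetrix suffix _a_at marks probes shared by transcripts of 1 gene, and which Runx1 transcripts each probe set reads was not analysed here. As the mean over its 6 probe sets, Runx1 had a log2 fold change of 0.26 ± 0.33 (SE) in both IRF4/8DKO and IRF8KO against WT (limma adjusted p = 0.867 and 0.781).

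Runx3, best known from T cells and natural killer cells, gave probe sets of unlike pattern. Its representative probe set read 1152 and 844 in IRF4/8DKO, 1288 and 837 in IRF8KO, and 1455 and 1224 in WT. The IRF4/8DKO arrays lay below both WT arrays, while the IRF8KO arrays overlapped with WT. The log2 fold change was -0.43 ± 0.37 (SE) in IRF4/8DKO and -0.36 ± 0.37 (SE) in IRF8KO against WT (limma adjusted p = 0.812 and 0.715). The dimmer probe set read 59.1 and 74.5 in IRF4/8DKO, 320 and 70.0 in IRF8KO, and 54.3 and 79.2 in WT. Only IRF8KO replicate 1 stood apart, and without it the log2 fold change of IRF8KO against WT was 0.08, against 1.10 ± 0.64 (SE) with it. The T and NK cell marker sum over 8 genes, of which 4 were kept and Cd3e, Cd3d, Cd3g and Ncr1 were not, was 182 and 186 in IRF4/8DKO, 216 and 440 in IRF8KO, and 254 and 197 in WT. Among them Cd3e was highest on IRF8KO replicate 1, at 21.0, but Cd3d was lowest there, at 5.19, and both failed the filter. The sum was highest on IRF8KO replicate 2. The part of such cells in the Runx3 values was not tested.

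Cbfb, the partner of all Runx proteins, had the narrowest range among the representative probe sets. It read 4049 and 3417 in IRF4/8DKO, 3275 and 4496 in IRF8KO, and 4372 and 4144 in WT, a 1.37-fold range. The log2 fold change was -0.19 ± 0.24 (SE) in IRF4/8DKO against WT, with a 95% interval of -0.73 to 0.34. The IRF8KO value against WT was -0.15 ± 0.24 (SE), with an interval of -0.68 to 0.38 (limma adjusted p = 0.876 and 0.825). A change of Cbfb by more than 1.65-fold downward or 1.26-fold upward in IRF4/8DKO lies outside that interval.

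Fli1 and Ets1 are neighbours on mouse chromosome 9, with no protein-coding gene listed between them. The representative Fli1 probe set read 2759 and 1508 in IRF4/8DKO, 3207 and 1937 in IRF8KO, and 1413 and 1233 in WT. This was the only member probe set with all 4 knockout arrays above both WT arrays. Its log2 fold change was 0.62 ± 0.38 (SE) in IRF4/8DKO and 0.91 ± 0.38 (SE) in IRF8KO against WT (limma adjusted p = 0.714 and 0.347). With both genotypes together it was 0.77 ± 0.33 (SE), with a 95% interval of 1.02-fold to 2.86-fold (limma adjusted p = 0.411, with 4 of 4 knockout arrays higher). The other Fli1 probe set did not share this pattern, at 1432 and 1746 in IRF4/8DKO, 1178 and 1401 in IRF8KO, and 1364 and 1788 in WT. Its log2 fold change was 0.02 ± 0.31 (SE) in IRF4/8DKO and -0.28 ± 0.31 (SE) in IRF8KO against WT.

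Ets1, a factor of lymphoid and endothelial cells, was read at low to moderate intensity by 4 probe sets. The representative one, whose suffix _s_at marks probes that can match more than 1 transcript, read 261 and 234 in IRF4/8DKO, 311 and 478 in IRF8KO, and 175 and 257 in WT. Both IRF8KO arrays were above all others (log2 fold change 0.83 ± 0.44 SE against WT, limma adjusted p = 0.454). Probe set 1452163_at, designed from the same source sequence, read 57.2 and 118 in IRF4/8DKO, 23.8 and 22.9 in IRF8KO, and 60.6 and 104 in WT. There both IRF8KO arrays lay below all others. Its log2 fold change was -1.42 ± 0.47 (SE) in IRF8KO against WT (limma adjusted p = 0.254) and 1.46 ± 0.47 (SE) in IRF4/8DKO against IRF8KO (limma adjusted p = 0.539). These were the lowest unadjusted p-values of any member in those comparisons, 0.0144 and 0.0124. The other pair of Ets1 probe sets read at most 116 on the 6 arrays and overlapped between genotypes. Averaged over its probe sets, Ets1 had a log2 fold change of 0.06 ± 0.38 (SE) in IRF8KO against WT.

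**Figure D3:**
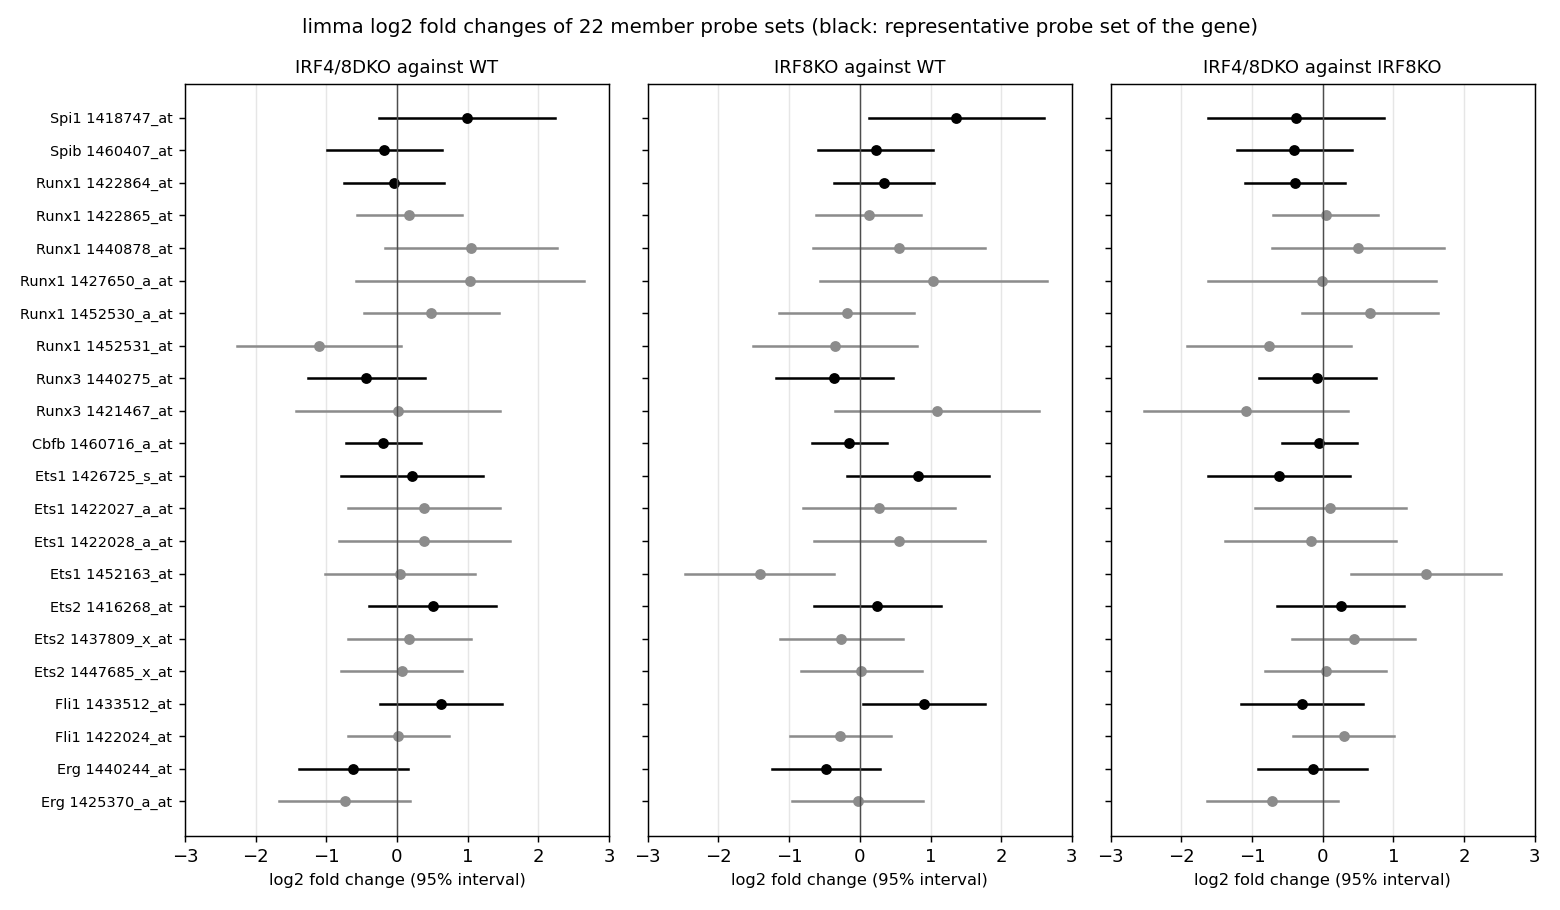
Log2 fold change (point) and 95% interval (line) of the 22 member probe sets in 3 comparisons, from limma, with the representative probe set of each gene in black. Most intervals include 0; those that do not are Spi1 (0.13 to 2.60), the representative Fli1 probe set (0.05 to 1.77) and Ets1 1452163_at (-2.48 to -0.36) in IRF8KO against WT, and Ets1 1452163_at (0.40 to 2.52) in IRF4/8DKO against IRF8KO, all before adjustment for multiple tests.

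Erg and Ets2 form the matching pair on mouse chromosome 16, also with no protein-coding gene listed between them. Erg, a factor needed to maintain blood stem cells, was lower in IRF4/8DKO by value in both of its probe sets. The representative one read 1557 and 1311 in IRF4/8DKO, 1916 and 1293 in IRF8KO, and 2679 and 1800 in WT. The other read 787 and 492 in IRF4/8DKO, 974 and 1077 in IRF8KO, and 1340 and 818 in WT. In each, both IRF4/8DKO arrays lay below both WT arrays, while IRF8KO overlapped with WT. The log2 fold changes in IRF4/8DKO against WT were -0.62 ± 0.34 and -0.74 ± 0.41 (SE), and limma gave an adjusted p = 0.671 for both. The IRF8KO values against WT were -0.48 ± 0.34 and -0.03 ± 0.41 (SE; limma adjusted p = 0.581 and 0.983). The marker sum of stem and multipotent progenitor cells (9 genes) lay below WT in both knockout genotypes, also in IRF8KO, where Erg overlapped with WT. It was 1783 and 976 in IRF4/8DKO, 1445 and 1841 in IRF8KO, and 8049 and 5127 in WT. The part of these markers in the Erg values was not tested.

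Ets2 read 517 and 551 in IRF4/8DKO, 523 and 379 in IRF8KO, and 360 and 387 in WT by its representative probe set. Both IRF4/8DKO arrays lay above both WT arrays (log2 fold change 0.50 ± 0.40 SE, limma adjusted p = 0.797), and the IRF8KO arrays overlapped with WT (0.25 ± 0.40 SE, limma adjusted p = 0.827). Its other probe sets carry the suffix _x_at, which marks probes open to cross-hybridisation. The brighter of them read 72.3 and 67.5 in IRF4/8DKO, 46.2 and 51.5 in IRF8KO, and 56.3 and 65.5 in WT, with IRF8KO the lowest genotype. The dimmer one ranged only 1.30-fold over the 6 arrays, from 31.7 to 41.1.

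Counts of direction over the factors depended on how a gene was read. By representative probe set, 4 of the 9 genes were higher and 5 lower in IRF4/8DKO against WT, with a median log2 fold change of -0.04, against a median of 0.03 over 13267 genes. For IRF8KO against WT, 6 were higher and 3 lower, with a median of 0.25, against 0.04 over all genes. Between IRF4/8DKO and IRF8KO, 1 was higher (Ets2) and 8 were lower, with a median of -0.29, against -0.01 over all genes. As means over each gene's probe sets, 5 were higher and 4 lower in IRF4/8DKO against WT, 7 and 2 in IRF8KO against WT, and 4 and 5 in IRF4/8DKO against IRF8KO. Over the 22 probe sets the counts were 15 and 7, 13 and 9, and 9 and 13 in the same comparisons. A log2 fold change beyond 1 in either direction was reached by 3 of the 22 probe sets in IRF4/8DKO against WT (11.2% of all probe sets), 4 in IRF8KO against WT (15% of all) and 2 in IRF4/8DKO against IRF8KO (10.3% of all).

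For the genes whose representative probe set varied most, the genes of nearest profile were found by the root mean square distance between log2 values centred on the 6-array mean. Nearest to Spi1 were Ogfr, Smpd1 (the acid sphingomyelinase gene) and Chst12, at distances of 0.11, 0.12 and 0.12. Ogfr read 347 and 1189 in IRF4/8DKO, 630 and 1090 in IRF8KO, and 391 and 343 in WT, with the same low IRF4/8DKO replicate 1 as Spi1. Nearest to Fli1 were Cog7, Mlc1 and Hs1bp3 (0.08, 0.09 and 0.12), and nearest to Ets1 were Apex2, 1700027F06Rik and Cadm1 (0.12, 0.13 and 0.13). Nearest to Erg were Zfp956, Slc20a1 (a phosphate transporter gene) and Rasal2, at 0.05, 0.07 and 0.08. The search ran over the 13267 tested genes, less the members themselves, on 6 arrays, and no test was made.

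Genes that work with these factors, or that they are reported to control, were read from lists chosen by function. Among other ETS family genes, 12 of 20 were tested and limma called 0 in every comparison (lowest adjusted p = 0.349), with a median log2 fold change of -0.06 in IRF4/8DKO and -0.13 in IRF8KO against WT. Etv5 read 75.0 and 67.0 in IRF4/8DKO, 179 and 54.9 in IRF8KO, and 317 and 164 in WT. Elk1 and Elk3, of the ternary complex factors that partner serum response factor, had log2 fold changes of 0.23 and 0.38 in IRF4/8DKO, and -0.62 and 0.54 in IRF8KO, against WT. Cofactors and corepressors of core binding factor had 12 of 13 members tested and 0 called (lowest adjusted p = 0.271), with a median of -0.18 in IRF4/8DKO and -0.06 in IRF8KO. The corepressor gene Tle4 read 1098 and 750 in IRF4/8DKO, 544 and 492 in IRF8KO, and 1028 and 987 in WT. Its paralogue Tle1 read 77.4 and 44.6 in IRF4/8DKO, 35.0 and 32.2 in IRF8KO, and 72.0 and 136 in WT, so both were lowest in IRF8KO by value. Hipk2, a kinase gene whose product modifies Runx1, read 688 and 624 in IRF4/8DKO, 1108 and 1446 in IRF8KO, and 1761 and 1279 in WT.

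In stem cells, Runx1, Erg and Fli1 are known to bind together with Tal1, Lyl1, Lmo2 and Gata2. Of these 4 partners limma called 1 lower, Gata2, in IRF4/8DKO against WT, where it called 0.299% of all probe sets. Gata2 read 32.3 and 28.1 in IRF4/8DKO, 117 and 300 in IRF8KO, and 1533 and 615 in WT. Its log2 fold change was -4.60 ± 0.59 (SE) in IRF4/8DKO against WT (limma adjusted p = 0.0285, with both arrays below both WT arrays) and -2.31 in IRF8KO against WT (limma adjusted p = 0.166). Without WT replicate 1 the first had an adjusted p = 0.654, and the call was also lost without any 1 of WT replicate 2 and the IRF4/8DKO arrays (limma adjusted p = 0.137 to 0.375). With sex as a block, without a filter and without a variance trend it was lost as well (limma adjusted p = 0.0774, 0.0568 and 0.0594). Tal1 read 107 and 250 in IRF4/8DKO, 71.6 and 238 in IRF8KO, and 338 and 284 in WT. Lmo2 read 5244 and 4447 in IRF4/8DKO, 6604 and 4104 in IRF8KO, and 6591 and 6176 in WT. Eosinophil, basophil and mast cell markers lay lower on the same arrays, with a sum over 9 genes of 496 and 590 in IRF4/8DKO, 4011 and 1503 in IRF8KO, and 11372 and 7296 in WT. Their part in the Gata2 values was not tested.

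Reported PU.1 targets lay mostly above WT, with none past the test. Of 23 listed, 21 were tested and limma called 0 in every comparison (lowest adjusted p = 0.0941). Of the tested targets, in IRF4/8DKO against WT 17 were higher and 4 lower, with a median log2 fold change of 0.82, against 52.5% of all genes higher. For IRF8KO against WT 16 were higher and 5 lower, with a median of 0.77, against 53.1% of all genes higher. This list, like the others, was chosen with earlier results of these data known. Cybb, a subunit gene of the phagocyte NADPH oxidase, read 2871 and 4123 in IRF4/8DKO, 2851 and 5312 in IRF8KO, and 631 and 1559 in WT. All 4 knockout arrays lay above both WT arrays (log2 fold change with both genotypes together 1.87, limma adjusted p = 0.0941). Csf1r read 2276 and 6625 in IRF4/8DKO, 2008 and 3061 in IRF8KO, and 1490 and 915 in WT. Nab2, an Egr corepressor gene, read 146 and 642 in IRF4/8DKO, 83.1 and 52.7 in IRF8KO, and 76.5 and 17.4 in WT. Many of these targets are themselves genes of maturing neutrophils and monocytes. Monocyte and macrophage marker sums lay above both WT arrays on all 4 knockout arrays. The neutrophil marker sums of IRF4/8DKO replicate 1 and IRF8KO replicate 1 lay below that of WT replicate 2. The part of these markers in the target values was not tested.

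Targets reported to need PU.1 and an interferon regulatory factor together did not lie to one side. Of 10 listed, 8 were tested and limma called 0, with 4 higher and 4 lower in IRF4/8DKO against WT (median log2 fold change 0.04) and 5 higher and 3 lower in IRF8KO against WT (0.18). Besides Cybb, Nf1, the neurofibromin gene, read 375 and 157 in IRF4/8DKO, 1202 and 471 in IRF8KO, and 499 and 329 in WT. Fcgr1, which codes for the high-affinity IgG receptor, was dim, between 3.83 and 45.5 on the 6 arrays. Also dim were Il1b, between 11.9 and 29.6, and Ciita, between 13.6 and 31.1. Cybb, Tlr4 and Fcgr1 are on the list of reported PU.1 targets as well.

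**Figure D4:**
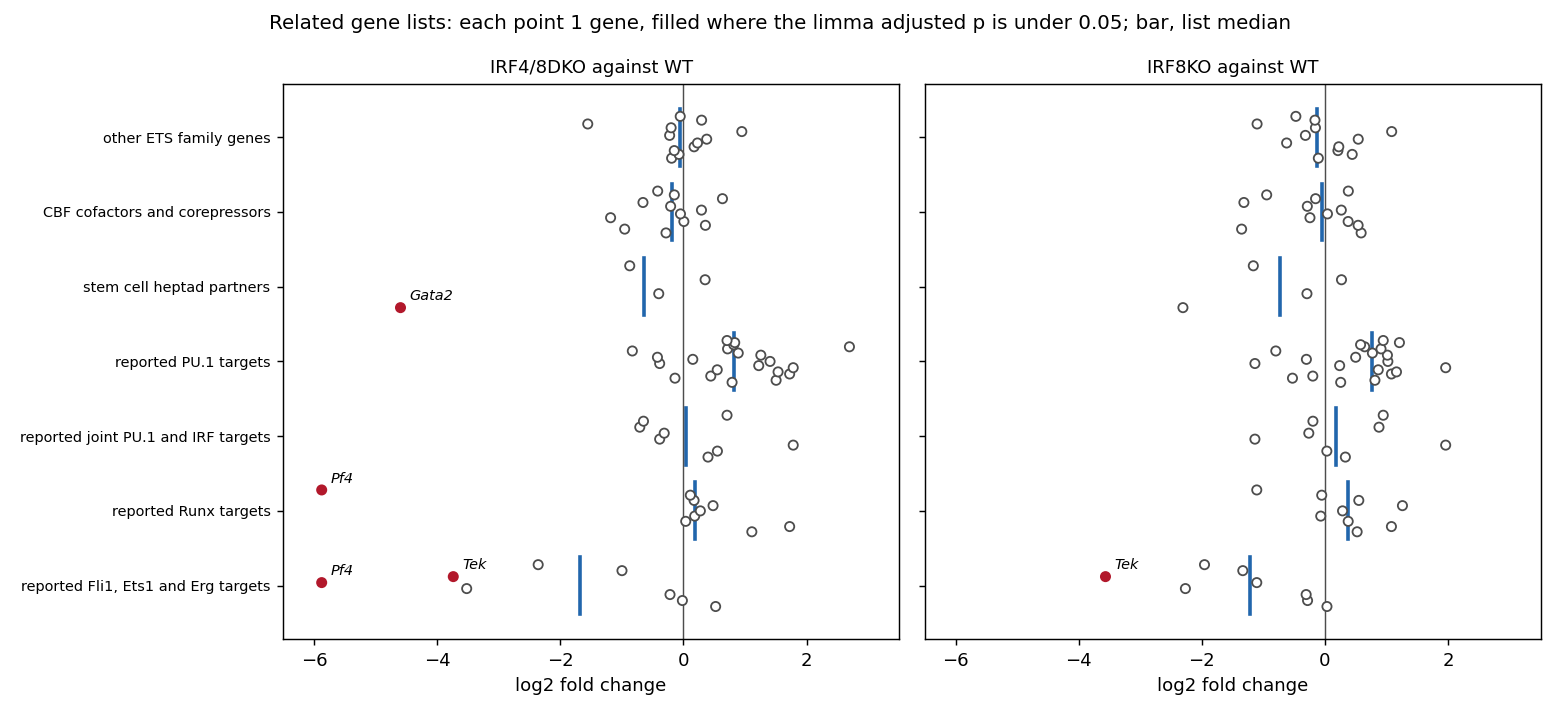
Log2 fold change of each tested gene in 7 related lists, in IRF4/8DKO against WT (left) and IRF8KO against WT (right), with filled points where the limma adjusted p is under 0.05 and a bar at the list median. Gata2, Pf4 and Tek are the called genes, all lower, while reported PU.1 targets have medians of 0.82 and 0.77.

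Reported Runx targets had 9 of 12 members tested and 1 called, Pf4, the platelet factor 4 gene, which is shared with the Fli1 and Ets list. In IRF4/8DKO against WT, where Pf4 was called, limma called 0.299% of all probe sets. Pf4 read 9.85 and 11.2 in IRF4/8DKO, 798 and 394 in IRF8KO, and 2516 and 590 in WT. It fell in IRF4/8DKO against WT (log2 fold change -5.88 ± 0.68 SE, limma adjusted p = 0.0261), while in IRF8KO the log2 fold change was -1.11 (limma adjusted p = 0.521). The difference between IRF4/8DKO and IRF8KO was not past the test either (-4.77, limma adjusted p = 0.364). The mean of Pf4 in IRF4/8DKO lay near the pseudocount of 10.5, so its fold change varies with that choice, and its call was lost without any 1 of the WT or IRF4/8DKO arrays (limma adjusted p = 0.0626 to 0.614), with sex as a block (0.0963) and without a filter (0.0518). Of the 9 tested, 8 were higher and 1 lower by value in IRF4/8DKO against WT (median log2 fold change 0.18, against 52.5% of all genes higher), some by little, such as Csf2 (0.037) and Mpo (0.11). In IRF8KO 6 were higher and 3 lower, with a median of 0.38, against 53.1% of all genes higher. The surrogate light chain gene Igll1 read 139 and 136 in IRF4/8DKO, 254 and 232 in IRF8KO, and 119 and 76.6 in WT.

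Reported targets of Fli1, Ets1 and Erg, which are megakaryocyte and endothelial genes, lay lowest of the 7 lists by median. Of 13 listed, 8 were tested, and 7 of these were lower and 1 higher in both genotypes against WT. Of all genes, 52.5% were higher in IRF4/8DKO and 53.1% in IRF8KO against WT. The median log2 fold change of the list was -1.68 in IRF4/8DKO and -1.22 in IRF8KO. Limma called 2 of the 8, Pf4 and Tek, in IRF4/8DKO, against 0.299% of all probe sets. In IRF8KO it called 1, Tek, against 0.0302%. Tek, the TIE2 receptor gene of endothelial and stem cells, read 5.77 and 4.12 in IRF4/8DKO, 8.10 and 5.75 in IRF8KO, and 250 and 152 in WT. It fell in both genotypes against WT, with a log2 fold change of -3.74 in IRF4/8DKO (limma adjusted p = 0.0225) and -3.56 in IRF8KO (limma adjusted p = 0.0423). All knockout values of Tek lay below the pseudocount, and another pseudocount gives another fold change. Its call in IRF4/8DKO was lost without either IRF4/8DKO array (limma adjusted p = 0.108 and 0.267) and with sex as a block (0.0774), and without either WT array it did not pass the filter on low values. Its call in IRF8KO was lost without either IRF4/8DKO array (limma adjusted p = 0.109 and 0.111) and under 6 of the other alternatives. Itga2b, the platelet integrin alpha IIb gene, read 8.56 and 8.88 in IRF4/8DKO, 55.8 and 21.1 in IRF8KO, and 456 and 93.6 in WT (limma adjusted p = 0.103 and 0.215 in IRF4/8DKO and IRF8KO against WT). Megakaryocyte markers, which include Pf4 and Itga2b, summed over 8 genes (5 kept; Gp1bb, Gp6 and Ppbp not) to 108 and 141 in IRF4/8DKO, 1715 and 612 in IRF8KO, and 4885 and 1200 in WT. Fli1 itself was higher by value on all 4 knockout arrays by its representative probe set and Erg lower by value in IRF4/8DKO, neither past the test.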

How the data were processed

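RNA from sorted GMPs was hybridised to Affymetrix Mouse Genome 430 2.0 arrays, from 10 ng of total RNA per the labels' protocols. Each deposited number is a model-based intensity (linear scale) from dChip 1.3, for which the authors used its perfect-match and mismatch model, per the series' design text. Neither the baseline array nor the filters used are stated there. Arrays carry no read depth, so their number limits the precision.

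Gene names came from GEO's platform annotation, updated by gene identifier to RefSeq (34945 probe sets had 1 symbol, 932 several and 9160 none). Values were transformed to log2(intensity + 10.5), the pseudocount being the 25th percentile of all values, and fitted with limma 3.58.1 in R 4.3.3 (3 residual and 5.84 prior degrees of freedom, no covariates). The 95% intervals are from that fit and are not adjusted for multiple tests. The related genes named are those past the threshold, or otherwise up to 3 per list with the lowest p. The profile comparison covers the 4 members of largest SD. The fit was tested on simulated data. Marker sums add the intensities of each list's representative probe sets. Lists were other ETS genes, core binding factor cofactors, stem cell partners, reported targets of PU.1, of PU.1 with IRF, of Runx, and of Fli1, Ets1 and Erg, and cell type markers. The members and lists were chosen with earlier results of these data known. Promoter sequences are from RefSeq (GRCm38.p6).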

Additional observations from a re-analysis of the deposited data

How the results depend on the processing

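No member probe set passed the threshold under any alternative in any comparison, with a lowest limma adjusted p of 0.0655 in IRF8KO against WT (Runx3 1421467_at without IRF8KO replicate 2), 0.161 in IRF4/8DKO against WT, 0.142 in IRF4/8DKO against IRF8KO and 0.0947 with both knockout genotypes. Outside the settings that left out an array, the directions that turned are given next. Filters, the variance trend, blocks and fitting only the genotypes compared leave log2 fold changes unchanged in this balanced design, so cannot turn them. The other settings were the pseudocounts, the normalizations and the mean over a gene's probe sets. With quantile normalization Runx1 1422865_at read -0.009 in IRF8KO against WT, Fli1 1422024_at -0.123 in IRF4/8DKO against WT, and Ets2 1437809_x_at 0.125 with both genotypes. With median centring Erg 1425370_a_at read 0.063 in IRF8KO against WT, Runx1 1422864_at 0.01 in IRF4/8DKO against WT, Ets2 1447685_x_at -0.002 in IRF4/8DKO against IRF8KO, and Ets2 1437809_x_at 0.029 with both genotypes. As means over a gene's probe sets, Runx3 read 0.369 in IRF8KO against WT and 0.08 with both genotypes, Runx1 0.263 in IRF4/8DKO against WT, and Runx1, Ets1 and Fli1 0.008, 0.195 and 0.005 in IRF4/8DKO against IRF8KO. The cause was not tested.

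Leaving out 1 array at a time turned the direction of these log2 fold changes, given from lowest to highest. For IRF4/8DKO against WT they were Runx3 1421467_at -0.22 to 0.25, Fli1 1422024_at -0.18 to 0.21, Ets1 1422027_a_at -0.11 to 0.88, Ets1 1422028_a_at -0.23 to 1.003, Runx1 1422864_at -0.32 to 0.23, Runx1 1422865_at -0.10 to 0.45, Ets1 1426725_s_at -0.055 to 0.47, Ets2 1447685_x_at -0.073 to 0.20, Ets1 1452163_at -0.42 to 0.50. For IRF8KO against WT they were Runx1 1422865_at -0.15 to 0.40, Erg 1425370_a_at -0.39 to 0.32, Ets2 1447685_x_at -0.12 to 0.16, Runx1 1452531_at -0.92 to 0.23, Cbfb 1460716_a_at -0.38 to 0.079. For IRF4/8DKO against IRF8KO they were Spi1 1418747_at -1.30 to 0.55, Ets1 1422027_a_at -0.38 to 0.60, Ets1 1422028_a_at -0.79 to 0.44, Runx1 1427650_a_at -0.89 to 0.86, Fli1 1433512_at -0.72 to 0.15, Erg 1440244_at -0.42 to 0.14, Runx3 1440275_at -0.38 to 0.23, Runx1 1440878_at -0.077 to 1.07, Ets2 1447685_x_at -0.089 to 0.17, Cbfb 1460716_a_at -0.27 to 0.18. For both knockout genotypes against WT they were Fli1 1422024_at -0.32 to 0.064, Runx1 1422864_at -0.12 to 0.43, Runx1 1422865_at -0.13 to 0.42, Ets2 1437809_x_at -0.14 to 0.049, Ets2 1447685_x_at -0.10 to 0.18, Spib 1460407_at -0.083 to 0.12. 

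Counts over all probe sets depended on single arrays. Limma called 9 in IRF8KO against WT (3 higher), and 21 or 5 with a pseudocount of 3.9 or 39.23, 5 without a filter, 17 with a filter at the 60th percentile, 30 (13 higher) with quantile normalization, 37 (17 higher) with median centring, 5 with no trend, 2 with only those genotypes, 2 with sex as a block and 0 to 1119 without 1 array (0 without either WT array, 1119 without IRF8KO replicate 1). For IRF4/8DKO against WT it called 89, and 13 without a filter, 27 with no trend, 476 with only those genotypes, 0 with sex as a block and 0 to 487 without 1 array (0 without any 1 of the WT or IRF4/8DKO arrays). Between IRF4/8DKO and IRF8KO it called 0, and 0 to 199 without 1 array (199 without IRF8KO replicate 1). With both genotypes it called 179, and 70 without a filter, 116 with a filter at the 60th percentile, 65 with no trend, 8 with sex as a block and 0 to 1082 without 1 array. Where 1 array is left of a genotype, it is assumed to vary like the others. Replicate numbers were shared by all genotypes, and whether they pair samples or mark a batch is not stated in the labels. The correlation of same-numbered deviations was 0.041 to 0.211, with the sexes crossed in IRF8KO. The replicate block gave 209, 216 and 391 calls in IRF8KO, IRF4/8DKO and both genotypes against WT, against 9, 89 and 179 without it. Between IRF4/8DKO and IRF8KO it gave 1, against 0. What same-numbered samples share was not tested.

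The related genes that passed were added to these alternatives after seeing the data. Tek passed in 11 of 14 in IRF4/8DKO and 6 of 14 in IRF8KO against WT, Gata2 in 9 of 16 and Pf4 in 10 of 16 in IRF4/8DKO. With 2 arrays per genotype, precision was limited by their number.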

Other observations

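Marker lists not described above were read in the same way, as summed intensities with no test. Erythroid markers (8 genes) summed to 6203 and 4436 in IRF4/8DKO, 4359 and 4012 in IRF8KO, and 9098 and 6926 in WT. Tfrc, the transferrin receptor gene, made up most of the knockout sums, and without it the sums were 261 and 165 in IRF4/8DKO, 1023 and 234 in IRF8KO, and 5940 and 2250 in WT (median log2 fold change of the list -3.32 in IRF4/8DKO and -2.05 in IRF8KO against WT). B and lymphoid markers (9 genes) summed to 1241 and 1941 in IRF4/8DKO, 1848 and 2059 in IRF8KO, and 902 and 780 in WT, so that all 4 knockout arrays lay above both WT arrays. This rests on Vpreb1, a surrogate light chain gene, without which the sums were 573 and 935 in IRF4/8DKO, 1077 and 784 in IRF8KO, and 716 and 595 in WT. Dendritic cell markers (7 genes) summed to 1141 and 1247 in IRF4/8DKO, 1504 and 1492 in IRF8KO, and 1434 and 1207 in WT. Endothelial markers (7 genes, among them Tek) summed to 280 and 454 in IRF4/8DKO, 436 and 298 in IRF8KO, and 736 and 578 in WT. Genes of cells that the sort gates out (3 measured) summed to 43.6 and 41.7 in IRF4/8DKO, 86.0 and 62.2 in IRF8KO, and 32.9 and 68.4 in WT.

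Differences within a sex, each between 1 array and 1 array, were uneven for Spi1 and Runx1. For Spi1 the log2 difference of IRF4/8DKO and WT was -0.06 between the males and 2.03 between the females, and that of IRF8KO and WT was 1.55 between the males and 1.18 between the females. For Runx1 1427650_a_at it was -0.05 and 2.10 in IRF4/8DKO, and 1.69 and 0.39 in IRF8KO, males before females. Whether a genotype's difference from WT itself differed by sex could not be tested with 1 array per sex and genotype.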
